A study of Homo sapiens with 4 samples.

Results

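The desaturases and elongases of fatty acids were read gene by gene in the order in which they act, in PANC-1 cells and in a clone of PANC-1 depleted of the histone variant H2A.Z. Members were taken by name: SCD, SCD5, FADS1, FADS2, FADS3, ELOVL1, ELOVL4, ELOVL5, ELOVL6 and ELOVL7. Of these 10 genes, 9 had counts, among 15220 genes with counts, and all 9 were among the 15100 genes tested. PANC-1 is an established line of human pancreatic ductal adenocarcinoma and was sequenced as wild type, without a transduced shRNA. PZT-2 is 1 clone of PANC-1 that carries lentiviral shRNAs against H2A.Z.1 and both isoforms of H2A.Z.2 and was selected with puromycin. Each group had 2 RNA-seq libraries, both lines were grown in DMEM with fetal bovine serum to similar passages, and cells carrying a scrambled shRNA are not analysed here. The paper reports that PZT-2 proliferated less than PANC-1, was arrested mostly in G2/M and had a senescent phenotype. The selection, the transduction, the cloning, the depletion of H2A.Z and this growth state therefore cannot be told apart in this comparison. The paper calls the 2 libraries of each group biological replicates, but neither it nor the labels say that they came from separate cultures. The p-values therefore measure only the spread between these libraries.

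Fatty acid synthase makes palmitate, a saturated chain. Elongases of the ELOVL family add carbon units to an acyl-CoA at the endoplasmic reticulum, and each prefers certain chain lengths and degrees of saturation. Desaturases place double bonds: SCD and SCD5 make monounsaturated oleate and palmitoleate, whereas FADS2 and FADS1 act in turn, with an elongation by ELOVL5 between them, on the essential fatty acids of the diet to yield arachidonate and eicosapentaenoate. SCD, FADS1 and FADS2 are textbook targets of the sterol regulatory element binding protein SREBP-1, the product of SREBF1.

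The libraries held between 12861341 and 15717503 estimated counts. H2AFZ, which encodes H2A.Z.1, had a mean normalized count of 6212 in PANC-1 and 2236 in PZT-2, with a log2 fold change of -1.47 (SE 0.0565, edgeR adjusted p = 6.27e-05). H2AFV, which encodes H2A.Z.2, changed less, by -0.36 on the log2 scale (edgeR adjusted p = 0.00574). All 6 epithelial markers had counts, with summed levels of 7248 and 7403 TPM in PANC-1 and 4058 and 3969 TPM in PZT-2, while no acinar or endocrine marker had any. Of those 6, KRT8, KRT18, KRT19 and CDH1 were lower in PZT-2, and KRT7 and EPCAM did not pass the test. Of the leukocyte, endothelial and fibroblast markers, 1 of 3, 1 of 3 and 2 of 3 had counts, with summed levels of at most 11.9 TPM in any library. CD14 averaged 1.69 normalized counts in PANC-1 and 23.9 in PZT-2 and COL1A1 513 and 153 (edgeR adjusted p = 0.0235 and 4.61e-04), whereas PTPRC, CD3E, VWF, CDH5 and DCN had none. The part of these markers in the values of the members was not tested. In bulk RNA, fewer cells with a transcript and less of it per cell cannot be told apart.

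Of the 9 members tested, 4 were lower in PZT-2 (SCD, FADS2, FADS1 and ELOVL5), 2 were higher (SCD5 and FADS3) and 3 did not pass the test (ELOVL1, ELOVL6 and ELOVL7). Each call is an adjusted p under 0.05 in edgeR's quasi-likelihood test across all genes, which called 28.4% of the genes tested, 13.7% as lower and 14.7% as higher. The share of members called was thus above that of all genes, without a test of the difference. The members were chosen with earlier results of these data known, so this comparison of shares is a description only. Between the groups, 7 of the 9 members did not overlap in their libraries, beside 66.3% of all genes. The median log2 fold change of the members was -0.53, against 0.0012 for all genes tested. With 2 libraries a group, an exact permutation test of a single gene cannot give a p under 0.333.

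**Figure D1:**
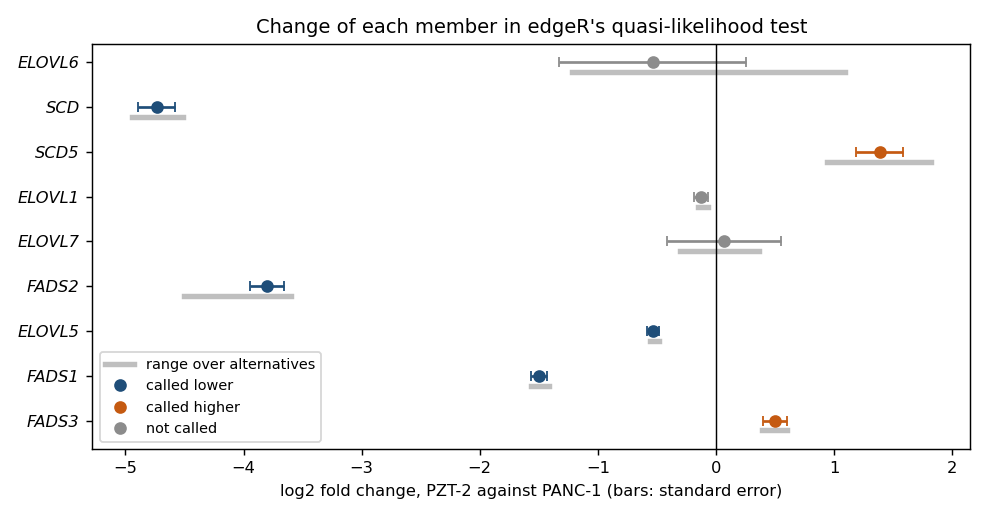
Log2 fold change of PZT-2 against PANC-1 (x axis) for the 9 members with counts, in the order of the pathway (y axis). Points give edgeR's estimate, bars its standard error, blue and orange the genes called lower and higher, and the grey lines the range over the alternative analyses; SCD and FADS2 lie farthest from 0, at -4.74 and -3.80.

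The first step, from palmitate to stearate, is the work of ELOVL6. Its only transcript with counts, NM_001130721, was estimated at 2 and 13 counts in PANC-1 and at 5 and 5 counts in PZT-2. At a log2 fold change of -0.53 (SE 0.79, edgeR adjusted p = 0.663) no difference was detectable at this depth, and the PANC-1 libraries lay on both sides of the PZT-2 ones. The other ELOVL6 transcript, NM_024090, had no row among the counts, which list transcripts that reached about 5 counts in at least 1 library. The values of ELOVL6 therefore cover part of the gene.

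SCD, the stearoyl-CoA desaturase that converts stearate to oleate, had normalized counts of 21140 and 15716 in PANC-1 and of 715 and 669 in PZT-2. The PZT-2 libraries lay far under both PANC-1 ones, by 26.6-fold on the means. The log2 fold change of -4.74 (SE 0.156, edgeR adjusted p = 6.01e-05) was the 37th lowest of 15100 genes. Of the 36 genes with a lower value, 4 averaged at least 100 normalized counts, as 10052 of all genes did. SCD was the most abundant member per length in PANC-1, with 489 and 374 TPM, and fell to 17.5 and 16.2 TPM. The spread between the PANC-1 libraries, 1.35-fold, was wide for a gene of this abundance: among 3224 genes that averaged at least 1000 normalized counts the median was 1.06-fold, and 1.77% spread more. The difference between the groups was many times this spread.

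SCD5, the second stearoyl-CoA desaturase, changed the other way. Its normalized counts were 33.8 and 34.3 in PANC-1 and 88.6 and 90.0 in PZT-2, so that the groups were well apart although the gene was scarce. The log2 fold change was 1.39 (SE 0.201, edgeR adjusted p = 0.00406), or 2.62-fold. Per length, SCD5 rose from 1.82 and 1.69 TPM to 4.19 and 4.35 TPM, still under the remaining SCD. SCD exceeded SCD5 by a ratio of TPM of 268 and 222 in PANC-1 and of 4.17 and 3.73 in PZT-2. SCD5 thereby went from 0.371% and 0.449% of the summed TPM of the pair to 19.4% and 21.1%, while that sum dropped from 491 and 376 TPM to 21.7 and 20.6 TPM. SCDP1, a pseudogene of SCD to which reads of SCD could be assigned, had no row among the counts.

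**Figure D2:**
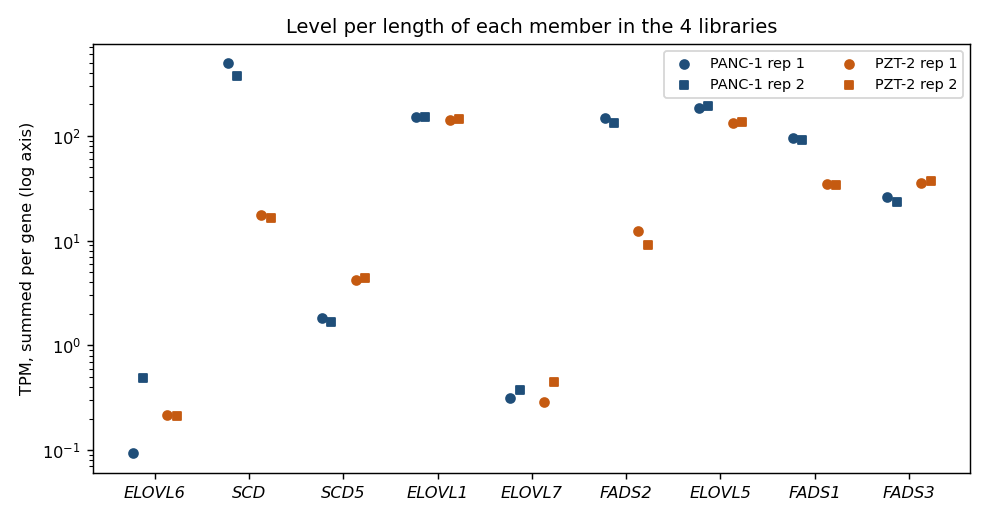
Level of the 9 members with counts (x axis, in pathway order) in TPM summed per gene (y axis, logarithmic) in the 2 PANC-1 and 2 PZT-2 libraries. SCD and FADS2 are far lower in both PZT-2 libraries, SCD5 and FADS3 are higher there, and ELOVL6 and ELOVL7 lie under 1 TPM with overlapping groups.

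ELOVL1, which lengthens saturated and monounsaturated chains toward those of ceramides and sphingomyelin, had normalized counts of 1688 and 1644 in PANC-1 and of 1518 and 1532 in PZT-2. The groups did not overlap, but the log2 fold change of -0.13 (SE 0.0577, edgeR adjusted p = 0.152) did not pass the test. At 150 TPM in each PANC-1 library and 143 TPM in each PZT-2 library it became the most abundant member in PZT-2. ELOVL7, which also elongates saturated chains, had 8 and 12 counts in PANC-1 and 8 and 13 counts in PZT-2, from 1 of its 4 transcripts. These ranges overlapped almost wholly (log2 fold change 0.07, SE 0.484, edgeR adjusted p = 0.937). ELOVL4, known for the very long chains of retina and skin, had no row among the counts, so no value is given for it.

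FADS2 catalyses the first desaturation of the polyunsaturated branch. Its normalized counts of 3757 and 3223 in PANC-1 stood against 288 and 214 in PZT-2, a 13.9-fold lower mean. With a log2 fold change of -3.80 (SE 0.144, edgeR adjusted p = 6.22e-05) FADS2 was the 58th lowest of all genes tested. The PZT-2 libraries differed from each other by 1.35-fold, much less than the groups did. Per length, FADS2 fell from 149 and 131 TPM to 12.4 and 9.02 TPM.

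ELOVL5, which elongates the product of FADS2, was lower in PZT-2 by a smaller step. It had normalized counts of 4165 and 4262 in PANC-1 and of 2865 and 2956 in PZT-2. The libraries of each group lay within 1.03-fold of each other, and the log2 fold change was -0.53 (SE 0.0532, edgeR adjusted p = 0.00116). Per length it went from 184 and 193 TPM to 133 and 137 TPM.

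FADS1 carries out the second desaturation of this branch, which yields arachidonate. Its normalized counts were 3336 and 3064 in PANC-1 and 1136 and 1131 in PZT-2, a 2.82-fold lower mean with groups far apart. The log2 fold change was -1.50 (SE 0.0664, edgeR adjusted p = 1.07e-04). Since FADS2 was reduced more than FADS1, the order of the pair was inverted: the ratio of FADS1 to FADS2 in TPM was 0.647 and 0.691 in PANC-1 and 2.78 and 3.79 in PZT-2.

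FADS3, the least studied gene of the cluster, for which a role in the desaturation of sphingoid bases has been described, was higher in PZT-2. Its normalized counts were 347 and 300 in PANC-1 and 446 and 468 in PZT-2, without overlap. The log2 fold change was 0.50 (SE 0.102, edgeR adjusted p = 0.0135). This call was the least stable among the members: leaving out a PZT-2 library raised the edgeR adjusted p to 0.0543 (replicate 1) or 0.0854 (replicate 2), past the threshold. FADS3 grew from 9.59% and 9.45% of the summed TPM of the 3 FADS genes to 42.9% and 46.0%, while FADS2 shrank from 54.9% and 53.5% to 15.1% and 11.3%.

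FADS1, FADS2 and FADS3 are neighbours on chromosome 11. In the RefSeq annotation of GRCh38.p14, FADS1 lies at chr11:61799627-61817003 on the minus strand, FADS2 at chr11:61816203-61867354 on the plus strand and FADS3 at chr11:61873526-61892224 on the minus strand, within 92598 bases in all. FADS1 and FADS2 run head to head and share 801 bases of their spans. In GENCODE 29 their exons share 490 bases on opposite strands. The library kit keeps strand, but the strand setting of the authors' quantification is not given in the sources used here, so that reads from the shared bases may have gone to either gene. In GENCODE 29, FADS2 also shares 49 exonic bases with FEN1, a DNA repair nuclease whose log2 fold change was 0.01 (edgeR adjusted p = 0.918). In RefSeq, FEN1 lies at chr11:61792911-61797238, outside the span of FADS2. Reads were quantified on RefSeq transcripts, whose shared exonic bases were not computed.

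Of the 9 other genes taken around the cluster, 1 was called higher and 1 lower, while the test called 28.4% of all genes. MYRF, a transcription factor of the myelin program, rose (log2 fold change 0.98, edgeR adjusted p = 0.00226), and RAB3IL1, an exchange factor for Rab proteins, fell (log2 fold change -0.53, edgeR adjusted p = 0.0443). The other 7 did not pass the test, and the median over the 9 was -0.13. Within the cluster, FADS1 and FADS2 were lower and FADS3 was higher, and a change shared along the locus was not tested.

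Summed over a family, the desaturases were far lower in PZT-2 and the elongases somewhat lower. The 5 desaturases together had 762 and 621 TPM in PANC-1 and 104 and 101 TPM in PZT-2. SCD accounted for 64.2% and 60.3% of this sum in PANC-1 and for 16.8% and 16.1% in PZT-2, where FADS3, with 34.0% and 36.6%, and FADS1, with 33.2% and 34.0%, made up the larger part. The elongases, with ELOVL2 and ELOVL3 added, summed to 391 and 419 TPM in PANC-1 and to 331 and 338 TPM in PZT-2.

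**Figure D3:**
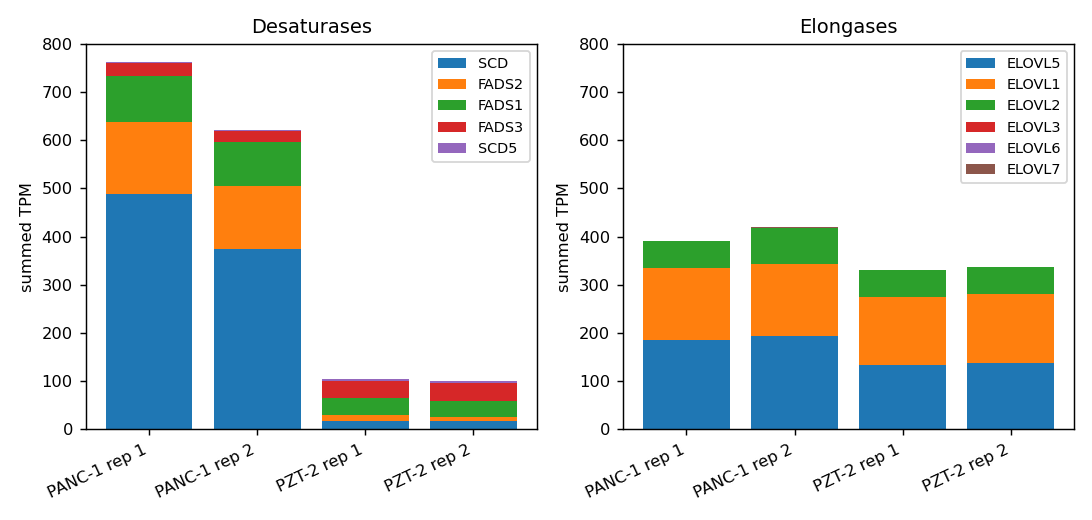
Summed TPM (y axis, from 0) of the 5 desaturases (left) and of the elongases with counts (right, ELOVL2 and ELOVL3 included) in each of the 4 libraries (x axis), stacked by gene. The desaturase bars drop from 762 and 621 TPM to 104 and 101 TPM, mostly through SCD, and the elongase bars from 391 and 419 TPM to 331 and 338 TPM.

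In PANC-1 the levels per length ran from SCD through ELOVL5, ELOVL1, FADS2, FADS1, FADS3 and SCD5 to ELOVL7 and ELOVL6, and only the last pair overlapped between libraries. In PZT-2 the order was ELOVL1, ELOVL5, FADS3, FADS1, SCD, FADS2, SCD5, ELOVL7 and ELOVL6. No neighbours in that second order overlapped, although FADS3, at 35.3 and 36.9 TPM, lay barely above FADS1, at 34.6 and 34.2 TPM. ELOVL1 was 0.814 and 0.777 times ELOVL5 in PANC-1 and 1.07 and 1.05 times in PZT-2.

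ELOVL2, which takes the chain beyond the products of FADS1 and ELOVL5 and is no member here, had normalized counts of 1789 and 2291 in PANC-1 and of 1645 and 1710 in PZT-2. Its log2 fold change of -0.28 (SE 0.115) did not pass the test (edgeR adjusted p = 0.114). Over the alternative analyses the adjusted p ran from 2.5e-04, without PANC-1 replicate 1, to 0.323, without PZT-2 replicate 1. Among the 7 relatives of the members with counts, MSMO1 and SC5D, which oxidize and desaturate sterols in cholesterol synthesis, were lower in PZT-2, by -1.31 and -0.93 on the log2 scale (edgeR adjusted p = 5.07e-04 and 0.0102). The other 5, ELOVL2 included, did not pass.

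At the level of transcripts, the members had 20 with counts. SCD, FADS1, FADS3, ELOVL6 and ELOVL7 had 1 each, and the counts of these genes are those of that transcript. The test of edgeR across 30403 transcripts called 0.148% of them. Of the 18 member transcripts that averaged at least 10 normalized counts, it called 3, namely NM_005063 of SCD, NM_013402 of FADS1 and NM_004265 of FADS2 (adjusted p = 0.0421, 0.0421 and 0.035). None of the 3 was called with a replicate block or with any 1 library left out, where the adjusted p reached 0.289, and those of SCD and FADS1 were also lost with the deposited counts. NM_021727 of FADS3, a gene called higher, was not called as a transcript (log2 fold change 0.49, edgeR adjusted p = 0.15). DESeq2 called 14.4% of all transcripts and 8 of the same 18.

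The transcripts of FADS2 had fold changes of different size. NM_004265, which made up 70.1% and 69.2% of the TPM of the gene in PANC-1, had normalized counts of 2714 and 2313 there and of 104 and 116 in PZT-2 (log2 fold change -4.51, SE 0.129). NM_001281502 had 181 and 193 in PANC-1 and 87.4 and 77.9 in PZT-2 (log2 fold change -1.18, SE 0.205, edgeR adjusted p = 0.113, DESeq2 adjusted p = 3.97e-04). NM_001281501 had 860 and 733 in PANC-1 but 95.4 and 18.7 in PZT-2 (log2 fold change -3.80, SE 0.786, edgeR adjusted p = 0.129, DESeq2 adjusted p = 0.00262). Its PZT-2 libraries differed from each other by more than those of any other FADS2 transcript. The share of NM_001281502 in the TPM of the gene went from 5.09% and 6.29% to 31.0% and 38.2%. The difference between transcripts was not tested, and the split of reads among them is an estimate.

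Of the transcripts of SCD5, NM_001037582 had 16.9 and 25.4 normalized counts in PANC-1 and 77.4 and 73.0 in PZT-2 (log2 fold change 1.82, SE 0.437), which did not pass edgeR's test (adjusted p = 0.155) but did DESeq2's (adjusted p = 0.0146). Its other transcript, NM_024906, had between 9.08 and 16.9 in all libraries, and the difference between these transcripts was not tested. NM_021814 made up between 86.7% and 91.0% of the TPM of ELOVL5 in every library. NM_022821 made up between 76.6% and 84.8% of that of ELOVL1.

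The promoters of the members were read for motifs known from lipogenic genes. The windows were the 250 bases before and 50 after the RefSeq starts used (GRCh38.p14, both strands, 35116 promoters). The letters CCAAT, the box bound by NF-Y, stand in 34.6% of all promoters and in those of SCD, SCD5, FADS2, FADS3, ELOVL1, ELOVL4 and ELOVL5, but not in those of FADS1, ELOVL6 or ELOVL7. For FADS2 it lies 5 bases after the later of its annotated starts. The windows of FADS3 (chr11:61891496-61891795) and ELOVL6 (chr4:110198566-110198865) lie inside the RefSeq spans of these minus-strand genes, which end at 61892224 and 110199202. The bases upstream of those ends were not searched for these genes. The windows were not matched to transcripts, so it is not known which of them, if any, belongs to NM_004265 of FADS2. The E-box CACGTG, in 7.26% of all promoters, occurs for ELOVL5 and ELOVL4. Neither the sterol regulatory element letters TCACNCCAC, in 1.13%, nor the letters AGGTCA repeated after a gap of NNNN, in 0.0199%, occur in any member's window. No match says only that these letters are not in this window. To set the gene that fell most beside the pair that rose, the CCAAT boxes of SCD, SCD5 and FADS3 are printed below with 30 bases each, 5′ to 3′ on the strand of the gene and with the box in capitals (ATTGG where it lies on the opposite strand). They start at -229 and -186 from the start of SCD (chr10:100346992-100347021 and chr10:100347035-100347064, plus strand) and at -135 from that of SCD5 (chr4:82798914-82798943, minus strand). Those of FADS3 lie inside its gene span, at -151 and -123 from the start used (chr11:61891679-61891708 and chr11:61891651-61891680, minus strand).
SCD, first box: gattgcgccgagCCAATggcaacggcagga
SCD, second box: aattcccttcggCCAATgacgagccggagt
SCD5: cgggcgctcctgATTGGctgtagctaagca
FADS3, first box: cctccctggcggCCAATggagaccgaggcc
FADS3, second box: ccccgcgcctggATTGGagcggacgcgggg
The box occurs beside genes that were lower in PZT-2, that were higher and, for ELOVL1, that did not pass the test. Its part in their levels was not tested. The windows of SCD and FADS3 hold a pair of boxes, as do those of ELOVL5 and ELOVL4.

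Enzymes that act with the members had smaller fold changes than SCD and FADS2. The counts called in this list and those that follow stand beside 13.7% of all genes called lower and 14.7% called higher. No list was tested as a set. Elongation needs a reductase, a dehydratase and a second reductase after the ELOVL step. Of the 6 such genes tested, 3 were lower in PZT-2, namely the reductases HSD17B12 and TECR and the dehydratase HACD2, at -0.61, -0.47 and -0.41 on the log2 scale (edgeR adjusted p = 0.00277, 0.00267 and 0.0293). The dehydratase HACD3 rose, with normalized counts of 1930 and 2134 in PANC-1 and 3284 and 3629 in PZT-2 (log2 fold change 0.77, edgeR adjusted p = 0.00122). The median of the list was -0.44.

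Desaturases draw electrons from cytochrome b5 and its reductases. Of these 6 genes, CYB5A and CYB5R1 were higher in PZT-2 (log2 fold change 0.45 and 0.35, edgeR adjusted p = 0.0122 and 0.0404) and CYB5R2 was lower (log2 fold change -0.30, edgeR adjusted p = 0.0241). The other 3 did not pass the test. The list's median was -0.005. No gene of this list fell as far as SCD, FADS2 or FADS1.

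Upstream, of the 8 genes tested that supply saturated fatty acids, 5 were lower in PZT-2 and none was higher. FASN, the fatty acid synthase, had 13546 and 13796 normalized counts in PANC-1 and 5606 and 5488 in PZT-2 (log2 fold change -1.30, edgeR adjusted p = 6.01e-05). ACACA, which makes malonyl-CoA for synthesis and elongation, fell by 0.90 on the log2 scale, and the citrate carrier SLC25A1 by 0.69 (edgeR adjusted p = 4.37e-04 and 7.39e-04). ME1 and ACLY fell by 0.28 and 0.20 on the same scale (edgeR adjusted p = 0.0264 and 0.035). The median of this list was -0.24.

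Of the 9 acyl-CoA synthetases tested, which activate the fatty acids, ACSL3, ACSL1 and ACSL4 were lower in PZT-2, at -0.86, -0.75 and -0.40 on the log2 scale (edgeR adjusted p = 0.00107, 0.00625 and 0.0163). The transporter SLC27A1 was higher, from 85.5 and 76.8 normalized counts to 202 and 199 (log2 fold change 1.31, edgeR adjusted p = 0.00132). The list's median was -0.40. In the peroxisome, which shortens very long chains, the sterol carrier SCP2 was lower, at -0.82 on the log2 scale (edgeR adjusted p = 0.0023).

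Downstream, of the 12 acyltransferases that put the products into phospholipids and neutral lipids, 4 were higher, 3 were lower and 5 did not pass, with a median of 0.0024. LPCAT3, which places polyunsaturated chains into phospholipids, had 850 and 738 normalized counts in PANC-1 and 397 and 371 in PZT-2 (log2 fold change -1.05, edgeR adjusted p = 9.4e-04). LPCAT2 and DGAT2 were lower too, at -1.03 and -0.84 on the log2 scale (edgeR adjusted p = 0.00233 and 0.0013). LPCAT4, MBOAT2, LPCAT1 and MBOAT7, the last of which prefers arachidonate, were higher, at 0.84, 0.54, 0.46 and 0.26 on the log2 scale (edgeR adjusted p = 8.36e-04, 0.0122, 0.0059 and 0.0157). Among the 5 ceramide synthases tested, whose substrates include the products of ELOVL1, CERS1 and CERS5 were higher, at 1.74 and 0.38, and CERS2 was lower, at -0.39 (edgeR adjusted p = 0.00152, 0.00807 and 0.00226), with a median of 0.38.

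**Figure D4:**
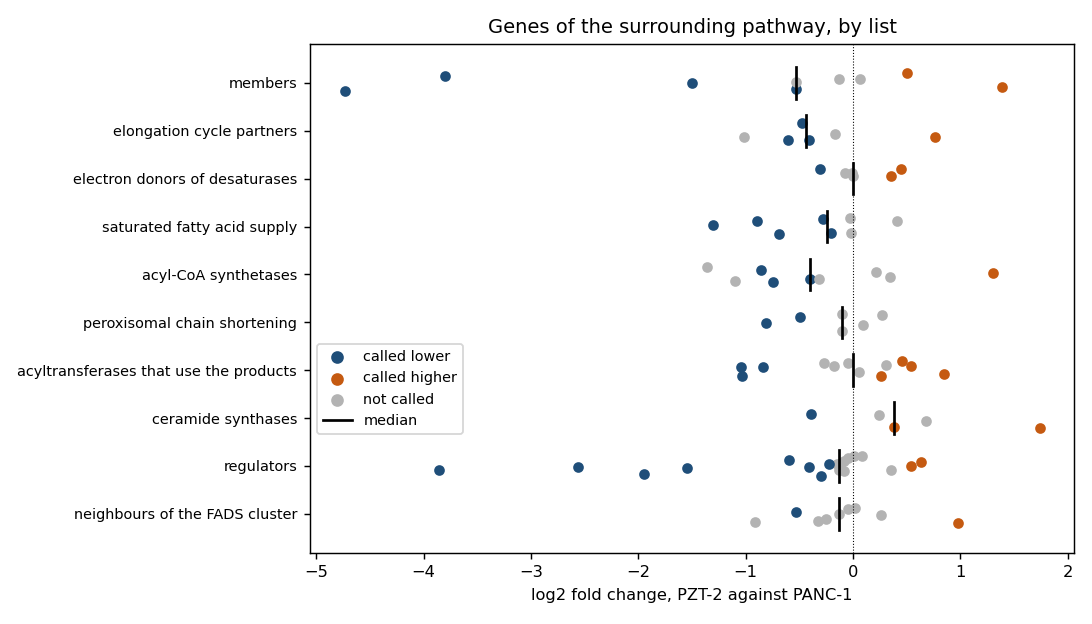
Log2 fold change of PZT-2 against PANC-1 (x axis) of each gene tested in the members and in 9 lists of the surrounding pathway (y axis). Blue and orange points were called lower and higher, grey ones were not called, and black bars give the medians, which lie between -0.53 for the members and 0.38 for the ceramide synthases.

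Of the 19 regulators, 8 were lower in PZT-2, 2 were higher and 9 did not pass the test, with a median of -0.14. Of all genes, the same test called 13.7% lower and 14.7% higher. SREBF1 had 3153 and 2288 normalized counts in PANC-1 and 731 and 675 in PZT-2 (log2 fold change -1.95, edgeR adjusted p = 5.48e-04). SREBF2 had 2824 and 2276 in PANC-1 and 907 and 841 in PZT-2 (log2 fold change -1.54, edgeR adjusted p = 4.51e-04). Like SCD, FADS1 and FADS2, both SREBF genes were higher in replicate 1 than in replicate 2 of PANC-1. FASN, INSIG1, MSMO1 and SC5D were lower in replicate 1 of PANC-1. The part of the SREBF genes in the level of SCD was not tested. INSIG1, which retains the SREBP complex in the endoplasmic reticulum, had 1533 and 1572 in PANC-1 and 252 and 274 in PZT-2 (log2 fold change -2.56, edgeR adjusted p = 5.11e-05). PGRMC1, a heme-binding membrane protein, was lower at -0.60 on the log2 scale, whereas SCAP, the escort of SREBP, and PPARA, a receptor for fatty acids, were higher at 0.54 and 0.63 (edgeR adjusted p = 0.00448, 0.00171 and 0.0119). The levels of SREBF1 transcripts do not show how much of the protein is processed, which was not measured here.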

How the data were processed

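RNA-seq of 2 PANC-1 and 2 PZT-2 libraries was analysed. Per the authors' methods and the submitters' processing notes, reads were trimmed with Trim Galore 0.4.1, quantified with kallisto 0.43.0 on RefSeq transcripts and exported with sleuth 0.29.0; the notes name hg19. The deposited estimated counts had been multiplied by the authors' software with 1 factor per library (1.16, 0.935, 1.03 and 1.01), which was undone here. The deposited TPM, treated as a signal because its columns sum to more than the defined total, was rescaled to 1000000 by library. The authors' own comparison (effects, p- and q-values) was used for gene symbols alone.

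Counts were rounded and summed per gene. Genes reaching 5 counts in 2 or more libraries entered edgeR 4.0.16 (quasi-likelihood, TMM, Benjamini-Hochberg) under R 4.3.3, with the same fit for transcripts. Standard errors were derived from the F statistic. Transcripts without a gene name held 0.0466% of the counts. Alternatives used DESeq2 1.42.0, limma 3.58.1 on log2(TPM + 1) or log2(TPM + 0.1), other filters and size factors, a replicate block, the most abundant transcript alone, and 3 of 4 libraries. The scripts were tested on simulated data. All members were named, and in each list every called gene, or where over 5 were called, the 4 of largest change in each direction that averaged at least 100 normalized counts. A called gene of the peroxisomal list is not reported here. Members and lists were chosen with earlier results of these data known. Sequences and positions are from RefSeq.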

Additional observations from a re-analysis of the deposited data

How the results depend on the processing

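The calls of SCD, SCD5, FADS1, FADS2 and ELOVL5 kept their direction and their side of the threshold in every alternative run, with a largest adjusted p of 0.0355, for SCD5. ELOVL1 passed the test in none. FADS3 was lost without PZT-2 replicate 1 or 2 and with the most abundant transcript alone (adjusted p = 0.0571), which left 1 member called higher each time; over the left-out libraries, 1 to 2 members were called higher. With 1 library left out, 1011 to 2468 genes were called higher and 850 to 2241 lower, the lowest counts of both without PZT-2 replicate 2; a lone library was then assumed to vary like the other group. Leaving out a library also moved ELOVL6 between -1.22 and 1.10 and ELOVL7 between -0.30 and 0.36 on the log2 scale, and turned the transcripts NM_024906 of SCD5 (-0.27 to 0.60), NR_046117 of ELOVL1 (-1.67 to 0.20), NM_001242830 of ELOVL5 (-0.67 to 7.48) and NM_001104558 of ELOVL7 (-0.30 to 0.36).

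The count of transcripts called was 45 in edgeR. It was 4376 with DESeq2, 1209 among transcripts with at least 10 counts in all 4 libraries, 348 with limma on log2(TPM + 1), 19 with the deposited counts and 0 (range 0 to 0) with any library left out, against 5614 transcripts at an unadjusted p under 0.05 with all libraries and at least 4136 with 1 left out. With the replicate number as a block, 0 transcripts were called (4054 at an unadjusted p under 0.05), 1959 genes were called higher and 1747 lower, and the calls of the members did not change. The numbers were shared by 2 pairs, with a correlation of deviations of -0.0237, and the labels do not tie them to a batch. The causes of these shifts were not tested. At this depth ELOVL6 and ELOVL7 could not be resolved, and no value of ELOVL4 is given.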
